A study of Mus musculus with 10 samples.

Results

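The genes described here are listed as neighbours of Cdh23 on mouse chromosome 10, the gene around which the strain B6.CAST carries DNA from CAST mice. Which of the listed genes lie within that segment is not given in the sources used here. Cdh23 encodes cadherin 23, a part of the tip links that join the stereocilia of hair cells and open their transduction channels, and variants of it change how hearing declines with age in inbred mice. A strain made by moving a chromosome segment carries, with the wanted gene, the genes that lie beside it, and these can differ from another strain in sequence and in RNA level. Members were all probe sets (groups of short probes for 1 transcript) whose platform annotation gave 1 symbol from a list of 46 genes. Of these, 29 genes were on the array (of 8252 genes named on it) with 41 of its 12488 probe sets, and 28 probe sets of 22 genes were bright enough to be tested. The other 17 listed genes had no probe set annotated to them and were not analysed here, among them Slc29a3, Mcu, Unc5b and Adamts14. Cdh23 itself had 0 annotated probe sets and was not analysed here.

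Cochlear RNA of female mice aged 10 weeks was hybridised as biotin-labelled cRNA to 10 single-colour arrays, each from a pool of 8 mice. The groups were 129X1/SvJ control (3 arrays), 129X1/SvJ noise (3), B6.CAST control (2) and B6.CAST noise (2), and the labels call the arrays of a group biological replicates. The noise was 105 dB SPL in an octave band at 10 kHz, given for 1 h, with the cochleae taken 6 h afterwards. Control mice had a sham exposure in the same chamber. B6.CAST has a C57BL/6J background, so it differs from 129X1/SvJ across the genome as well as around Cdh23, and what the CAST segment adds cannot be told apart from that background with these groups. The extent of the segment is not given in the sources used here. On 1 control and 1 noise array, both numbered 3, the strain name is spelled 129XI/SvJ, and these were kept in 129X1/SvJ. Values are signal intensities as deposited, and differences are on the scale of log2(signal + 16) after quantile normalization. A strain gap is B6.CAST minus 129X1/SvJ, so a negative gap is a lower signal in B6.CAST.

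The arrays were alike in scale (mean signal without the lowest and highest 2% of probe sets about 500.3). In 129X1/SvJ, the array of noise replicate 1 correlated least with the other 9 (mean r = 0.947), and the rest lay between 0.965 and 0.972. Gapdh probe sets at the 3′ and 5′ ends of the transcript report on RNA integrity: their signal ratio reached 29.2 for control replicate 2 of 129X1/SvJ and 6.94 for noise replicate 1 of B6.CAST, and lay between 0.790 and 1.40 elsewhere. All 9 cochlear markers on the array, such as Otos and Coch, could be tested. Their summed signal was 35141 to 40501 in control and 31223 to 34538 in noise-exposed 129X1/SvJ, and 44691 to 46567 and 40269 to 42203 in B6.CAST, higher in B6.CAST on every array within each exposure, while their median mean strain gap was 0.02 and 0 of 9 were called. Erythroid markers had a median mean gap of -1.01 (1 of 5 called) and bone markers of -0.60 (0 of 6 called). It was -0.39 for B cells (0 of 3 called) and -0.10 for endothelium (0 of 5). Positive median mean gaps were those of skeletal muscle at 0.49 (1 of 5 tested called), macrophages at 0.35 (1 of 8) and T and NK cells at 0.31 (0 of 1). Summed skeletal muscle signals overlapped in control mice (419.2 to 2005.5 in B6.CAST, 926.4 to 1370.1 in 129X1/SvJ). With noise they were lower in B6.CAST (527.8 to 760.9 against 911.2 to 1322). Macrophage sums were higher in B6.CAST in control mice (6503 to 7874.5 against 3300.7 to 5356.6) and overlapped with noise. Those of T and NK cells overlapped in both exposures. The part of these shifts in the gaps given here was not tested. In whole tissue, fewer cells of a type and less RNA per cell cannot be told apart.

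Of the 28 tested probe sets of the neighbours of Cdh23, 2 differed between the strains when both exposures were averaged, and both were lower in B6.CAST. They belonged to Spock2, which encodes testican-2, a proteoglycan of the extracellular matrix, and to Vps26a, which encodes a subunit of the retromer complex that returns cargo from endosomes. The share called was 7.14% of the tested neighbours at a limma adjusted p under 0.05, against a background of 3.24% of the 8695 probe sets tested (1.16% called lower). In control mice alone 0 of 28 were called (background 0.92%), with 4 at an unadjusted limma p under 0.05 (14.3%, background 11.1%), and in noise-exposed mice alone 0 of 28 (background 1.45%), with 5 at that unadjusted limit (17.9%, background 10.6%). For the mean gap 7 were (25%, background 15.3%). The median mean gap of the neighbours was -0.01, as was that of all tested probe sets, and the median size of the gap was 0.21 against 0.18.

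Among the tested probe sets of the neighbours, 104375_at of Spock2 had the mean gap that was largest in size. It read 4162.5, 4605.6 and 4645.5 on the control arrays of 129X1/SvJ and 7006.2, 4556.7 and 5138.6 on its noise arrays. The probe set read 1755.2 and 3819.4 on the control arrays of B6.CAST and 3120.2 and 2394.4 on its noise arrays. Every B6.CAST array lay below every 129X1/SvJ array, and the signals of the 2 B6.CAST control arrays were far apart. The strain gap was -0.78 ± 0.27 (SE) without noise and -1.01 ± 0.27 with noise, neither past the threshold (limma adjusted p = 0.306 and 0.127). The gap without noise was -0.24 when the first control array of B6.CAST was left out and -1.32 when the second was (limma adjusted p = 0.976 and 0.0549). With noise the gap stayed at -1.01 in the same fits, and its error fell from 0.27 to 0.19. B6.CAST control then held 1 array, which adds nothing to the estimate of the spread, so no call is read from these fits. The mean gap was -0.90 ± 0.19 (95% interval -1.32 to -0.47, limma adjusted p = 0.0277), a signal 1.86-fold higher in 129X1/SvJ. With noise replicate 1 of 129X1/SvJ left out the mean gap was -0.81 and its limma adjusted p was 0.0512, and it was -0.63 (limma adjusted p = 0.0731) when control replicate 1 of B6.CAST was left out. The call was also lost without the second or the third control array of 129X1/SvJ (limma adjusted p = 0.0664 and 0.0690) and without the second noise array of B6.CAST (0.136). Without the 2 arrays of high Gapdh ratio the gap was -0.96 and the limma adjusted p was 0.104.

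The second tested probe set of Spock2, 102095_f_at, carries a suffix that marks probes which can match other sequences. It read 238.8, 244.9 and 182.3 on the control arrays and 227.8, 222.2 and 249.3 on the noise arrays of 129X1/SvJ. In B6.CAST it read 197.6 and 84.8 without noise and 112.6 and 128.2 with noise. The groups overlapped only through the first B6.CAST control array, which lay above the lowest 129X1/SvJ array. Its mean gap was -0.71 ± 0.20 and did not pass the threshold (limma adjusted p = 0.0912). The first B6.CAST control array was the lower of its pair for 104375_at and the higher for 102095_f_at.

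Vps26a (96665_at) read 691.1, 721.9 and 644.8 on the control arrays of 129X1/SvJ and 749.0, 743.5 and 552.6 on its noise arrays. In B6.CAST it read 493.8 and 438.5 without noise and 361.3 and 451.8 with noise. All 4 B6.CAST arrays lay below all 6 arrays of 129X1/SvJ. The gap was -0.51 ± 0.20 without noise and -0.70 ± 0.20 with noise (limma adjusted p = 0.356 and 0.143), and its mean was -0.61 ± 0.14 (95% interval -0.92 to -0.30, limma adjusted p = 0.0383), or 1.52-fold higher in 129X1/SvJ. Leaving out any of the 10 arrays other than the third noise array of 129X1/SvJ ended the call, with limma adjusted p between 0.0508 and 0.138 and gaps between -0.66 and -0.55. Without the 2 arrays of high Gapdh ratio its gap was -0.53 and its limma adjusted p was 0.247.

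By strain alone, 2 of the 28 probe sets had groups that did not overlap, again 104375_at of Spock2 and Vps26a, which is 7.14% of the tested neighbours against 6.12% of all tested probe sets.

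**Figure D1:**
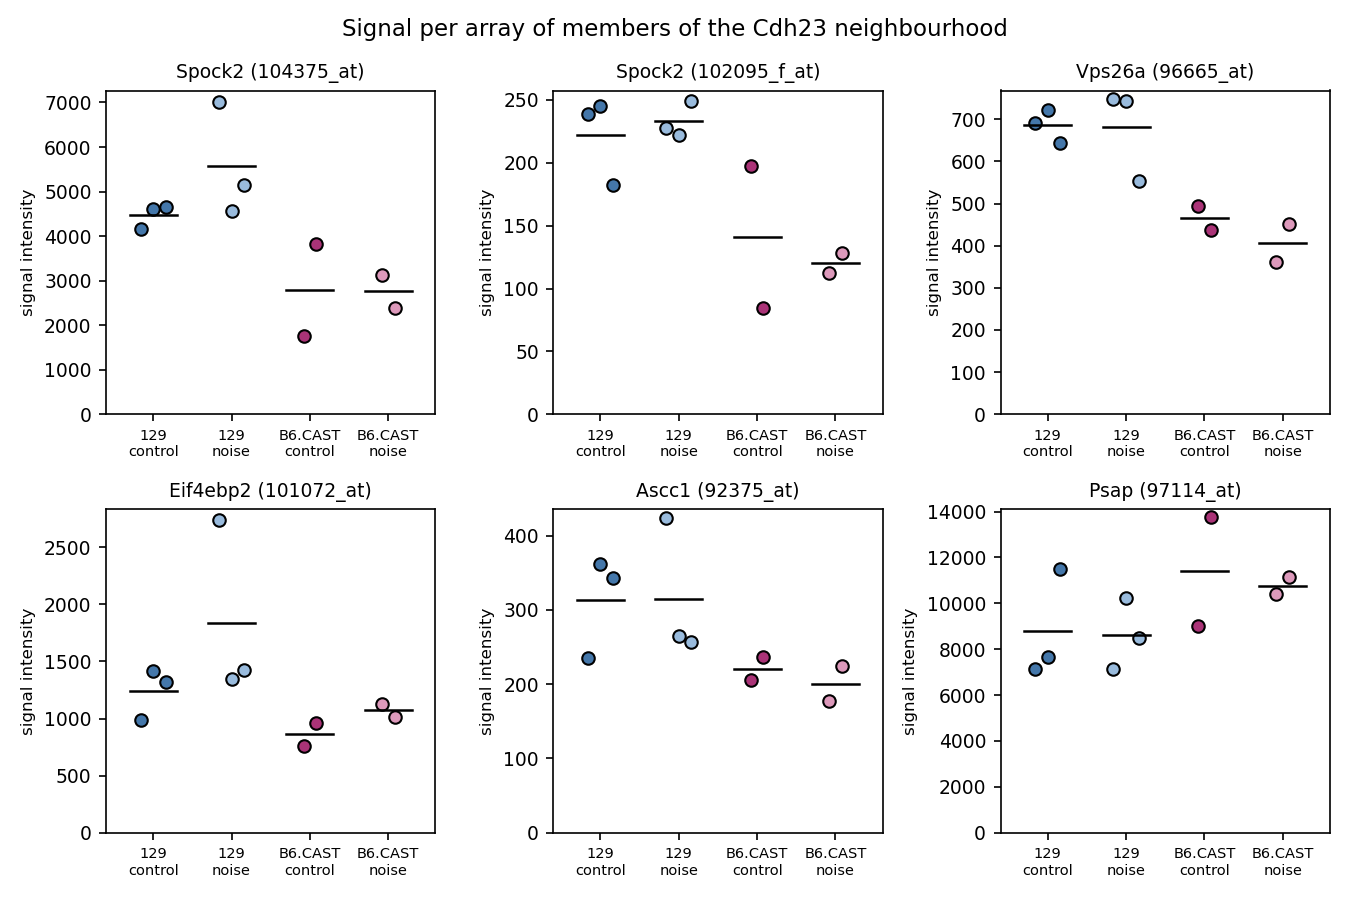
Signal intensity (vertical axis, linear, from 0) of 6 probe sets of neighbours of Cdh23 on each of the 10 arrays, grouped by strain and exposure. Points are arrays and bars are group means. For Spock2 (104375_at) the 4 B6.CAST arrays read 1755.2 to 3819.4, below the 6 arrays of 129X1/SvJ at 4162.5 to 7006.2, and for Vps26a they read 361.3 to 493.8, below 552.6 to 749.0.

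The promoters of these genes are shown to give the DNA at the start of both genes that were called, with that of Psap, which lies next to Cdh23. The windows run from 250 bases before to 50 after the start of the gene in RefSeq (GRCm38.p6), and 45 of the 46 listed genes matched that table. They are the reference sequence of C57BL/6J, so neither the CAST nor the 129 bases are seen in them. Capitals mark GGGCGG, the GC box, and CACGTG, the E-box, on either strand. Spock2 lies at chr10:60106007-60106306 on the plus strand, Vps26a at chr10:62486756-62487055 on the minus strand and Psap at chr10:60277378-60277677 on the plus strand.
Spock2: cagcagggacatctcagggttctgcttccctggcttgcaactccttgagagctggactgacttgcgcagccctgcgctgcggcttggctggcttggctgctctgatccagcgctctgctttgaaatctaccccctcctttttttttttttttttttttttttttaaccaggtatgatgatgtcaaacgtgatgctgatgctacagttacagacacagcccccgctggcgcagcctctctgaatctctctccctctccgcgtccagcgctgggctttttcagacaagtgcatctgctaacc
Vps26a: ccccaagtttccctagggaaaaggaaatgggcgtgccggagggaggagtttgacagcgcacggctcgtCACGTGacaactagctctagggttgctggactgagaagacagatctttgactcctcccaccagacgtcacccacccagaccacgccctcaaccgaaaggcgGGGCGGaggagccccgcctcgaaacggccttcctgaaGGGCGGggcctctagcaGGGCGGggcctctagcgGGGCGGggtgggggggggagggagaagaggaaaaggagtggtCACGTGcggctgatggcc
Psap: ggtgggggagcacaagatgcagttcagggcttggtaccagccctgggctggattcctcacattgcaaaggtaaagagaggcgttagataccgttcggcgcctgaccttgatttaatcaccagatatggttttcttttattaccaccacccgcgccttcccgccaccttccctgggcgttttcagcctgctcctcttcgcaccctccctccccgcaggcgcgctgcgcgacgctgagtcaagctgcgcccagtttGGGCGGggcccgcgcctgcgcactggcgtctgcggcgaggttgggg
The window of Spock2 held 0 matches and had a GC content of 52.3%, that of Vps26a held 4 GC boxes and 2 E-boxes at a GC content of 64.7%, and that of Psap held 1 GC box at 62.0%. Among all 32851 promoter windows, 35.7% held a GC box and 7.2% an E-box. Among the 52 windows of the listed genes these shares were 61.5% and 11.5%. The CCAAT box (CCAAT), the TATA box (TATAAA) and the cAMP response element (TGACGTCA) were searched on both strands and had 0 matches in these 3 windows, while 37.4%, 13.6% and 1.8% of all windows held them. A match is a description of the letters and not of binding.

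The comparison of the gap without and with noise uses different arrays on each side. No neighbour passed the test of a difference between these gaps: 0 of 28 were called by limma, as were 0 of all 8695 (background 0%), and 0 were at an unadjusted limma p under 0.05 against 2.97% of all tested probe sets. The smallest limma adjusted p was 0.997. The intervals were wide: for Spock2 (104375_at) the difference was -0.23, with a 95% interval of -1.08 to 0.62, and for Vps26a -0.19, with an interval of -0.80 to 0.43. The gap had the same sign without and with noise for 20 of the 28 probe sets (71.4%), against 61.7% of all tested probe sets, and across the 28 probe sets the 2 gaps had Pearson's r = 0.59 and Spearman's rho = 0.64, against r = 0.40 across all tested. These are descriptions across probe sets, some of the same gene, which are not independent replicates.

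**Figure D2:**
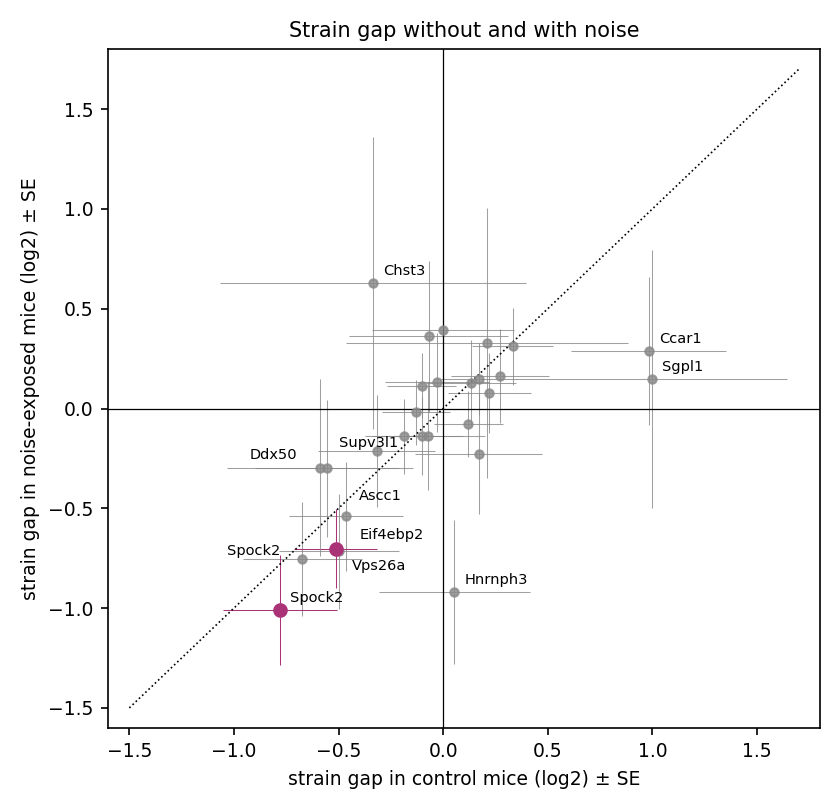
Strain gap in noise-exposed mice (vertical axis, log2 ± SE) against that in control mice (horizontal axis, log2 ± SE) for the 28 tested probe sets, with the line of equal gaps dotted. The large points are the called probe sets of Spock2 (-0.78 and -1.01) and Vps26a (-0.51 and -0.70), and 20 of 28 points lie in the quadrants of equal sign.

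The difference of gaps that was largest in size was that of Hnrnph3, which encodes a nuclear protein that binds RNA and takes part in splicing. Hnrnph3 (104231_at) read 681.2, 298.5 and 442.9 on the control arrays of 129X1/SvJ and 798.9, 692.3 and 580.0 on its noise arrays, and in B6.CAST 586.2 and 357.0 without noise and 230.8 and 511.3 with noise. The control groups overlapped, and in noise-exposed mice both B6.CAST arrays lay below all 3 of 129X1/SvJ. Its gap was 0.05 ± 0.36 without noise and -0.92 ± 0.36 with noise, and the difference of -0.97 ± 0.51 did not pass (limma adjusted p = 0.997). The difference was -0.48 without noise replicate 1 of B6.CAST, the array at 230.8, which took the gap with noise to -0.43, and -0.22 when both arrays with a high Gapdh ratio were left out, those at 230.8 and 298.5. With noise replicate 2 of B6.CAST left out it was -1.46. Leaving out control replicate 1 of B6.CAST gave -0.65. Chst3, which encodes a sulfotransferase that modifies chondroitin sulfate, read 143.4, 32.2 and 134.1 without and 16.3, 105.9 and 87.1 with noise in 129X1/SvJ, and 49.4 and 95 without and 37.1 and 191.1 with noise in B6.CAST. Its arrays scattered widely within every group, and its difference of gaps was 0.96 ± 1.04. With noise replicate 1 of 129X1/SvJ left out, the one at 16.3, that difference was 0.29. It was 0.07 without noise replicate 2 of B6.CAST, 1.86 without noise replicate 1 of B6.CAST and 2.35 when both arrays with a high Gapdh ratio were left out.

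The extracellular matrix genes held 4 measured members, Spock2, Chst3, P4ha1 and Col13a1, with 5 tested probe sets, of which 1 (Spock2) was called. P4ha1, a catalytic subunit of the prolyl 4-hydroxylase that modifies collagen, read 584.5 to 670.8 in 129X1/SvJ and 577.5 to 728.1 in B6.CAST, with a mean gap of 0.02 ± 0.12. Col13a1, a transmembrane collagen, had a mean gap of 0.15 ± 0.27 for 102261_f_at. The strains overlapped for both of these probe sets.

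Of the lysosomal and sphingolipid genes, Psap encodes prosaposin, the precursor of the saposins that help break down sphingolipids in lysosomes, and Sgpl1 encodes sphingosine-1-phosphate lyase. None of their 4 tested probe sets was called. Psap (97114_at) read 7157.8, 7643.4 and 11513.4 without and 7135.0, 10222.1 and 8469.3 with noise in 129X1/SvJ. In B6.CAST it read 8997.5 and 13777.2 without and 10390.7 and 11125.3 with noise. The strains overlapped, although with noise both B6.CAST arrays lay above all 3 of 129X1/SvJ. The gap was 0.33 ± 0.19 without and 0.31 ± 0.19 with noise, and the mean of 0.32 ± 0.14 did not pass (limma adjusted p = 0.291). The second tested probe set of Psap, 161476_at, read 381.0, 399.7 and 531.6 without and 494.6, 536.0 and 472.6 with noise in 129X1/SvJ, and 413.9 and 557.0 without and 498.8 and 576.8 with noise in B6.CAST. The groups overlapped, and its mean gap was 0.13 ± 0.15.

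Both probe sets of Sgpl1 were tested and had gaps of opposite sign. Sgpl1 96126_at read 87.7, 58.5 and 143.3 without and 316.4, 321.5 and 68.0 with noise in 129X1/SvJ, and 315.5 and 129.5 without and 91.4 and 439.0 with noise in B6.CAST. The highest array exceeded the lowest several-fold in both strains, and the mean gap of 0.57 ± 0.46 had an interval from -0.43 to 1.58. It was 0.10 without noise replicate 2 of B6.CAST and 1.04 without noise replicate 1. Sgpl1 96127_at read 708.5, 819.6 and 678.4 without and 639.1, 707.4 and 888.7 with noise in 129X1/SvJ, and 555.3 and 719.2 without and 679.7 and 665.6 with noise in B6.CAST. Its groups overlapped and its mean gap was -0.16 ± 0.13.

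The genes of protein turnover, traffic and translation held 6 measured members with 7 tested probe sets, of which 1 (Vps26a) was called. Eif4ebp2 encodes a repressor of translation that binds the cap-binding factor eIF4E. Eif4ebp2 101072_at read 990.9, 1413.9 and 1319.8 without and 2735.1, 1347.3 and 1424.9 with noise in 129X1/SvJ, and 762.2 and 959.8 without and 1126.2 and 1015.5 with noise in B6.CAST. Both B6.CAST arrays lay below all arrays of 129X1/SvJ within each exposure, and the strains overlapped only across exposures. Its gap was -0.50 ± 0.29 without and -0.72 ± 0.29 with noise, and the mean of -0.61 ± 0.20 did not pass (limma adjusted p = 0.157). With noise replicate 1 of 129X1/SvJ left out, the one at 2735.1, the mean gap was -0.44. Eif4ebp2 94353_at read 281.2, 189.7 and 67.5 without and 407.7, 79.7 and 147.7 with noise in 129X1/SvJ, and 231.7 and 141.2 without and 109.5 and 368.7 with noise in B6.CAST. Its groups overlapped and its mean gap of 0.27 ± 0.48 had the opposite sign.

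The other 4 genes of that group had mean gaps between -0.12 and 0.22, and none was called. They were Sar1a, a small GTPase of vesicle export from the endoplasmic reticulum (0.01 ± 0.12), Tysnd1, a peroxisomal protease (-0.12 ± 0.14), Herc4, a ubiquitin ligase (0.20 ± 0.24), and Anapc16, a subunit of the anaphase-promoting complex (0.22 ± 0.17).

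The RNA helicase, splicing and coactivator genes held 5 measured members with 7 tested probe sets, 5 of them with a negative mean gap and 0 called. Ascc1, a subunit of a transcriptional coactivator complex, read 235.1, 361.6 and 342.8 without and 423.6, 265.4 and 256.2 with noise in 129X1/SvJ, and 205.1 and 236.1 without and 177.1 and 224.1 with noise in B6.CAST. The strains overlapped by 1 array of each, and the mean gap was -0.50 ± 0.19 (limma adjusted p = 0.227). Ddx21 and Ddx50 encode closely related nucleolar RNA helicases and lie side by side in the order of listed genes. Ddx21 had a mean gap of 0.15 ± 0.14.

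Ddx50 92245_at read 133.4, 102.9 and 172.8 without and 317.7, 142.2 and 65.4 with noise in 129X1/SvJ, and 82.1 and 88.4 without and 84.5 and 138.0 with noise in B6.CAST. Ddx50 92226_at read 1620.2, 1822.9 and 1488.6 without and 1214.4, 1347.0 and 1701.2 with noise in 129X1/SvJ, and 1377.3 and 1614.1 without and 1422.9 and 1411.1 with noise in B6.CAST. The strains overlapped for both, with mean gaps of -0.44 ± 0.31 and -0.07 ± 0.12, and that of 92245_at was -0.20 without noise replicate 1 of 129X1/SvJ, the array at 317.7, and -0.66 without noise replicate 3. Ccar1 encodes a regulator of the cell cycle and apoptosis that acts as a transcription coactivator. Ccar1 95094_g_at read 110.9, 37.9 and 88.7 without and 102.8, 119.8 and 75.5 with noise in 129X1/SvJ, and 209.0 and 132.3 without and 71.6 and 160.0 with noise in B6.CAST. Only the B6.CAST noise array at 71.6 fell inside the range of 129X1/SvJ. The mean gap was 0.64 ± 0.26 (limma adjusted p = 0.271), the most positive among the tested neighbours. Ccar1 95093_at read 147.1, 80.2 and 145.3 without and 133.5, 193.8 and 130.6 with noise in 129X1/SvJ, and 157.1 and 131.2 without and 85.4 and 146.7 with noise in B6.CAST, with overlapping groups and a mean gap of -0.03 ± 0.22. Of the 6 genes with 2 tested probe sets, Spock2, Psap and Ddx50 thus had mean gaps of the same sign in both, and Sgpl1, Eif4ebp2 and Ccar1 did not. Under the alternatives the sign changed for Eif4ebp2 94353_at (-0.09 to 1.01) and Ccar1 95093_at (-0.14 to 0.08).

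Of the mitochondrial and energy genes, Hk1 (hexokinase 1), Ppa1 (a pyrophosphatase) and Supv3l1 (a mitochondrial RNA helicase) were tested and 0 were called, with mean gaps of 0.05 ± 0.18, 0.16 ± 0.13 and -0.43 ± 0.24. Srgn encodes serglycin, the proteoglycan core of secretory granules in white blood cells. It read 367.6 to 653.6 in 129X1/SvJ and 297.0 to 520.3 in B6.CAST, with a mean gap of -0.26 ± 0.20. The 9 neutrophil markers, all on the array, had summed signals of 3432.6 to 20999.8 in control and 12272.9 to 36301.5 in noise-exposed 129X1/SvJ, and of 5915.7 to 19297.8 and 2338.2 to 2622.6 in B6.CAST. The 5 mast cell markers, all on the array, had summed signals of 548.0 to 593.3 in control and 457.1 to 496.8 in noise-exposed 129X1/SvJ, and of 772.5 to 875.9 and 523.5 to 759.2 in B6.CAST. Neutrophil markers thus had a negative median mean gap (-1.36, 0 of the 9 tested called). Their sums overlapped between the strains in control mice and did not in noise-exposed mice. The median mean gap of mast cell markers was positive (0.23, 1 of the 3 tested called, with Mcpt4 under 10 on every array). The part of both lists in the value of Srgn was not tested. Pcbd1, a cofactor of the transcription factor HNF1, had a mean gap of -0.10 ± 0.19 and was the only tested gene of its role group.

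No neighbour passed the test of noise in either strain. In 129X1/SvJ, 0 of 28 probe sets were called by limma (background 0.506%), and 0 had an unadjusted p under 0.05 (background 11.5%). In B6.CAST, 0 were called (background 0.046%), and 0 had an unadjusted p under 0.05 (background 2.1%). For the mean over both strains, 0 were called (background 0.46%) and 1 had an unadjusted limma p under 0.05, against 7.63% of all tested probe sets. That probe set was Anapc16, which read 595.8, 601.4 and 493.7 without and 325.0, 533.1 and 528.7 with noise in 129X1/SvJ, and 683.1 and 663.9 without and 456.3 and 515.7 with noise in B6.CAST. Its B6.CAST groups did not overlap and those of 129X1/SvJ did, and the mean noise effect was -0.39 ± 0.17 (limma adjusted p = 0.602). Hk1 read 5756.9, 5990.6 and 5452.4 without and 2754.1, 5830.4 and 5484.0 with noise in 129X1/SvJ, and 5896.1 and 5397.3 without and 4958.1 and 4986.8 with noise in B6.CAST. The low noise value in 129X1/SvJ was that of the first noise array, and the mean effect of -0.29 ± 0.18 was -0.12 without it. For Eif4ebp2 101072_at the mean noise effect was 0.42 ± 0.20, and 0.25 without that array. For Sgpl1 96126_at it was 0.46 ± 0.46, and -0.01 without noise replicate 2 of B6.CAST, the array at 439.0, or 0.93 without noise replicate 1 of that strain. Of the neighbours' probe sets, 1 (Ddx21) had groups that did not overlap in 129X1/SvJ, 3.57% against 16% of all tested, and 9 in B6.CAST, 32.1% against 29.6%.

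In RefSeq order the listed genes run from P4ha1 to Sirt1, with 112 annotated genes, 59 of them protein coding, over that stretch. Psap is the last listed gene before Cdh23 with 0 genes between them, and Vsir is the next listed gene. Genes were ordered by their start positions alone, so this order does not show whether a gene lies within or beyond Cdh23. Of the listed genes, Ecd lies on chromosome 14 in RefSeq and had no probe set annotated to it. On the P4ha1 side of Cdh23, Ascc1 and Spock2, next to each other in the list, both had negative gaps, and Psap, nearest to Cdh23, had positive gaps in both tested probe sets. On the other side the negative gaps of Supv3l1, Vps26a and Srgn followed each other in the list and were followed by the positive gap of Ddx21. Only Vps26a among these 3 was called. On the P4ha1 side, Anapc16, before Ascc1, and Chst3, between Spock2 and Psap, had positive mean gaps (0.22 and 0.15). These runs were picked after the values were seen. Over the 28 tested probe sets, 14 mean gaps were positive and 14 negative.

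**Figure D3:**
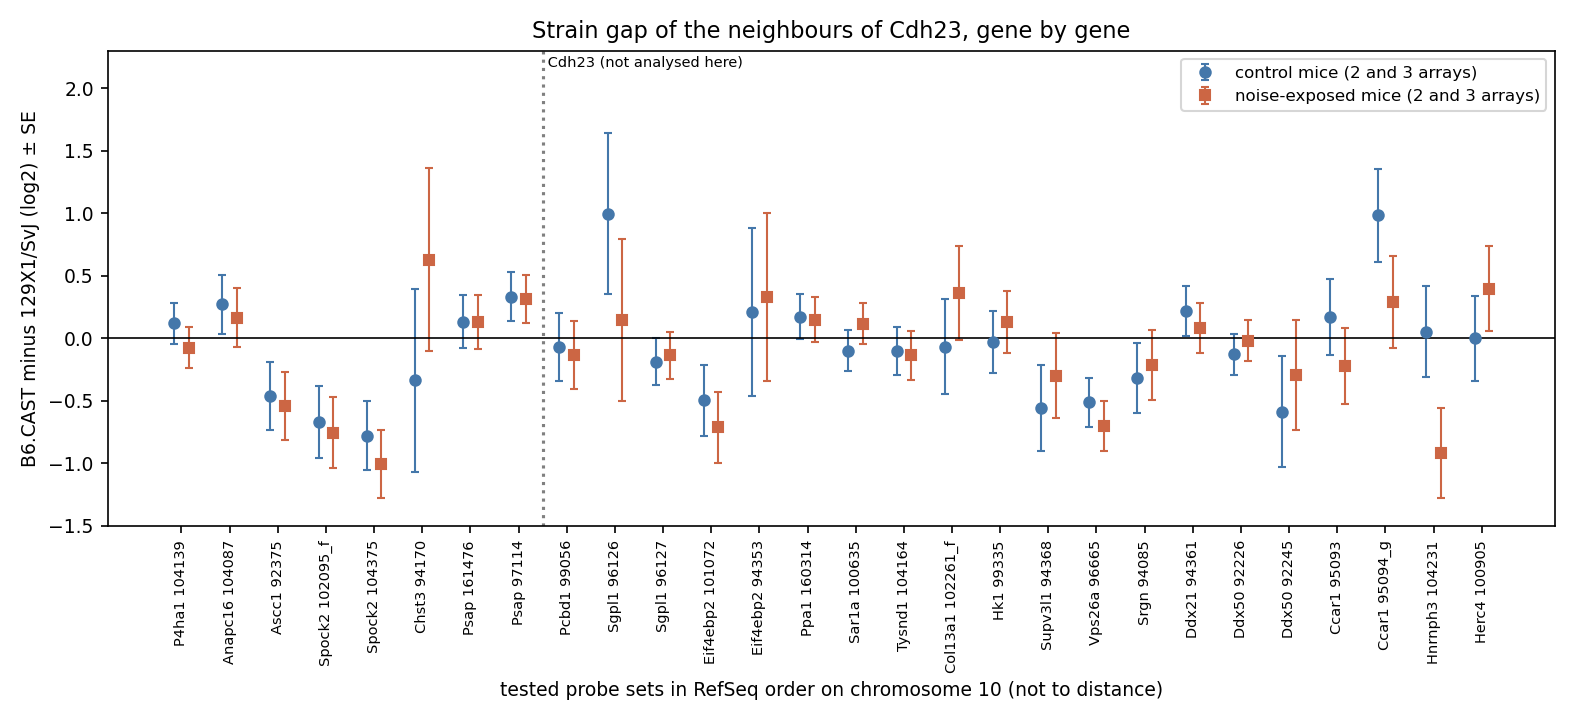
Strain gap (vertical axis, log2 ± SE of the limma estimate) of the 28 tested probe sets in their RefSeq order (horizontal axis, not to distance), for control mice (circles) and noise-exposed mice (squares), with the place of Cdh23 dotted. Negative and positive gaps are interspersed along the order, from -0.78 to 1.00 in control mice and from -1.01 to 0.63 in noise-exposed mice.

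Without noise, groups of the neighbours did not overlap for 8 of 28 probe sets (28.6%, against 29.9% of all tested), 3 higher and 5 lower in B6.CAST. With noise this held for 7 (25%, against 25.3%), 1 higher and 6 lower.

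Other genes of the same stretch and of its flanks were compared by counts. The 3 tested probe sets between P4ha1 and Sirt1 that belong to other genes included 0 called, and that of Ddit4, a stress-induced inhibitor of mTORC1, had a mean gap of -0.83 ± 0.22 (limma adjusted p = 0.0641). Among the 33 probe sets of the 30 tested genes beyond P4ha1, 4 were called (12.1%): Sowahc (-0.92), Man1a 160579_at (-0.94) and Sesn1 (-0.63) lower and Hsf2 (1.69) higher in B6.CAST. The second tested probe set of Man1a, 160580_at, had a mean gap of -0.10 (limma adjusted p = 0.879). Among the 39 probe sets of the 30 genes beyond Sirt1, 1 was called (2.56%), Egr2 at -0.83. On chromosome 10 without the neighbours 15 of 326 were called (4.6%), and on other chromosomes 236 of 7499 (3.15%). The difference between these shares was not tested.

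**Figure D4:**
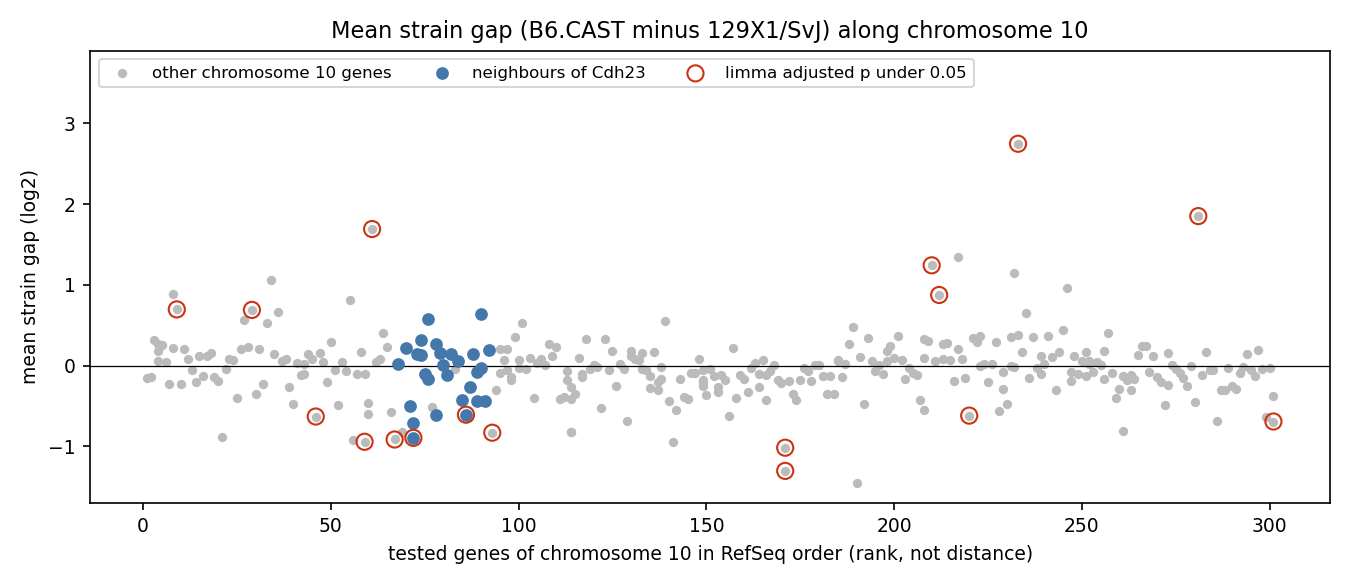
Mean strain gap (vertical axis, log2) of the 354 tested probe sets of chromosome 10 in RefSeq order (horizontal axis, rank of the gene), with the neighbours of Cdh23 as larger points and limma adjusted p under 0.05 ringed. Of the 28 neighbours 2 are ringed, and 15 of the other 326.

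The 13 probe sets left out as dim belonged to 11 genes, and 7 genes had no tested probe set: Prf1 (perforin of cytotoxic granules), Nodal (a signal of left-right patterning), Neurog3 and Atoh7 (transcription factors of endocrine and retinal precursors), Tet1 (which oxidises methylated cytosine), Sirt1 (a deacetylase) and Dna2 (a helicase and nuclease of DNA replication). In 3 of the 13, every B6.CAST array read below every 129X1/SvJ array, against 1.13% of all 3727 dim probe sets. Dna2 (103444_at) read 24.2, 39.9 and 57.3 without and 97.3, 47.1 and 45.5 with noise in 129X1/SvJ, and 7.1 and 4.2 without and 13.0 and 13.8 with noise in B6.CAST. The highest B6.CAST array was well under the lowest 129X1/SvJ array.

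Another probe set of Ddx50, 96532_at, read 42.1, 21.6 and 26.1 without and 142.0, 31.4 and 26.9 with noise in 129X1/SvJ, and 4.6 and 3.4 without and 4.1 and 4.0 with noise in B6.CAST. The strains did not overlap for it, unlike for 92226_at and 92245_at of the same gene. Col13a1 102262_r_at read 25.8, 68.3 and 56.0 without and 70.6, 32.5 and 44.9 with noise in 129X1/SvJ, and 18.5 and 11.9 without and 19.6 and 17.8 with noise in B6.CAST. These 3 probe sets were chosen for their separation after their values were seen. Their signals lay near or below the pseudocount of 16 in B6.CAST, which sets the size of a log difference there, so no gap is given for them. In the fit with no filter 2.13% of 12422 probe sets were called, and the neighbours called were Vps26a and, with that limit on their values, Dna2 and Ddx50 96532_at, while 104375_at of Spock2 was at a limma adjusted p of 0.0503.

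**Figure D5:**
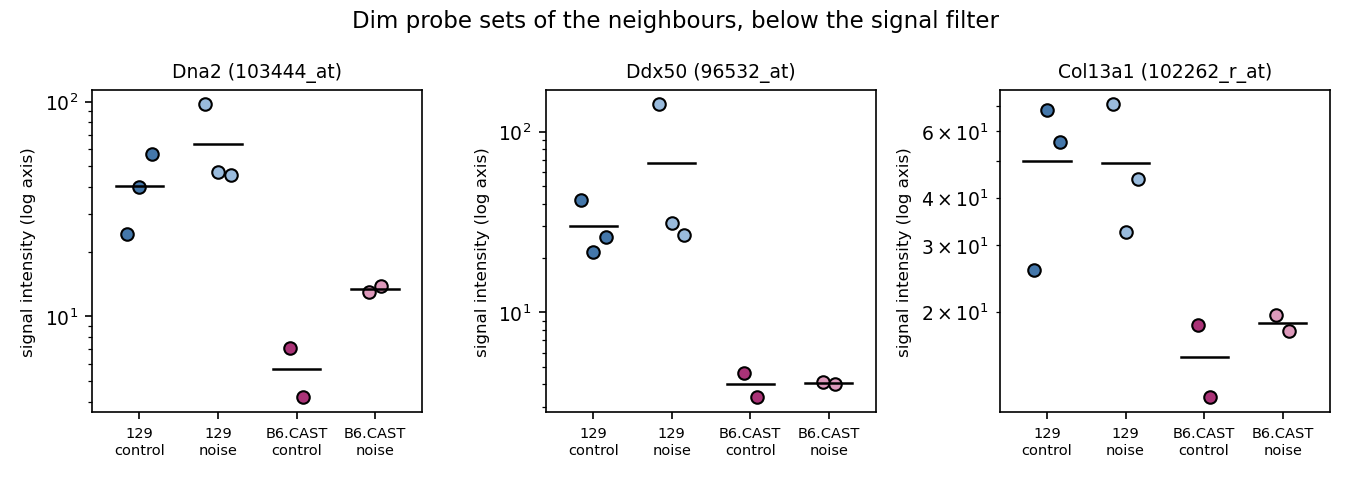
Signal intensity (vertical axis, log scale) on each of the 10 arrays for the 3 dim probe sets whose strains did not overlap, grouped by strain and exposure, with bars at group means. B6.CAST arrays read 4.2 to 13.8 against 24.2 to 97.3 for Dna2, 3.4 to 4.6 against 21.6 to 142 for Ddx50 96532_at, and 11.9 to 19.6 against 25.8 to 70.6 for Col13a1 102262_r_at.

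The remaining 10 dim probe sets had overlapping strains. Prf1, for which T and NK cell markers are the matching list, read 10.3 to 102.3 in 129X1/SvJ and 7.5 to 54.8 in B6.CAST. Of those markers 8 were on the array and 1 was bright enough to be tested, and Cd3g was under 10 on every array. Neurog3 stayed under 8 on every array and Eif4ebp2 96729_at under 12.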

How the data were processed

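The authors' deposited table holds linear signal intensities per probe set for the 10 arrays, already brought to a common scale, and the software is not given in the sources used here; no detection flags were used. From these, log2(signal + 16) was quantile normalized over all 12488 probe sets, 66 control probe sets and the 30% of the others with the lowest mean were left out, and limma 3.58.1 in R 4.3.3 fitted 4 group means on all 10 arrays, with a variance trend and Benjamini-Hochberg adjustment over the 8695 probe sets tested (threshold 0.05). Standard errors come from that fit, and 10 arrays limit the precision. The script was tested on simulated data.

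Names came from the platform annotation (10855 probe sets with 1 symbol, 396 with several, 1237 unnamed here) and gene order from RefSeq (GRCm38.p6). Levels were not compared between probe sets. Probe sequences were not used here, so a difference between strains in RNA level and in probe binding cannot be told apart. Replicate numbers were not used as a block, since same-numbered control and noise arrays did not deviate together (correlations of -0.15, -0.18 and -0.39 in 129X1/SvJ and -0.17 in B6.CAST). Neighbours given with every array were those called, the 8 with the largest mean gap, the 4 with the largest difference of gaps or noise effect, and those with several tested probe sets; the dim probe sets with separate strains were chosen after their values were seen, as were the flanking genes named. Members, lists and tests were chosen with earlier results of these data known. Alternatives were other scalings, pseudocounts, filters, variance models, array weights, a replicate block and each array left out.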

Additional observations from a re-analysis of the deposited data

How the results depend on the processing

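Under the alternatives, the number of neighbours called for the mean strain gap was the result that moved. It was 2 without quantile normalization, with a pseudocount of 1 or 64, with the lowest 50% of probe sets left out and with a robust variance trend, and 3 with no filter on dim probe sets, with array weights and at a threshold of 0.10. It was 0 with median scaling, with no variance trend and without the 2 arrays of high Gapdh ratio. It was also 0 without 3 arrays (those 2 and the first noise array of 129X1/SvJ), an alternative chosen after seeing the data. Leaving out each array in turn gave 0 to 2. The cause was not tested. For the gap in noise-exposed mice, leaving out each array gave a call only where B6.CAST control was left with 1 array. For the other 5 comparisons the count of neighbours called was 0 in every setting run.

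With the replicate number as a block, 0 neighbours were called for the mean gap, and 0 with the B6.CAST numbers crossed, a pairing added after seeing the data because the correlation of same-numbered B6.CAST arrays was -0.17. Between the strains, same-numbered arrays had correlations of 0.12 and 0.07 in control mice and of -0.18 and 0.14 in noise-exposed mice. Whether same-numbered arrays shared a batch was not tested.

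The mean gap of Spock2 104375_at lay between -1.17 and -0.63 over 24 alternatives. Where every group kept 2 or more arrays, its limma adjusted p ran from 0.0214 (array weights) to 0.129 (replicate block). It was under 0.05 in 12 of the 24, a count that includes fits leaving 1 array in a B6.CAST group. The mean gap of Vps26a lay between -0.71 and -0.49. Where every group kept 2 or more arrays, its limma adjusted p ran from 0.0133 to 0.0962. It was under 0.05 in 9 of the 24 alternatives for Vps26a. Both counts include the threshold of 0.10, which repeats the main fit. Of 1510 values of named differences under alternatives, 67 changed sign, all of differences that were not called. In 27 of these values a called difference lost its call, all for the mean gaps of Spock2 104375_at and Vps26a. In 5 values an uncalled difference gained a call.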
